A study of Mus musculus with 12 samples.

Results

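The acute phase plasma proteins described here are those of the genes *Saa1*, *Saa2*, *Saa3*, *Saa4*, *Orm1*, *Orm2*, *Hp*, *Hpx*, *Lcn2* and *Apcs*, taken by name. They are 10 of the 24340 gene entries in each of 2 deposited tables, and all 10 were found in both. RNA was sequenced from 3 *Hnf4a* cKO livers and 3 control livers, and from 3 samples of HNF4A EE 3T3 cells and 3 samples of control 3T3 cells. The *Hnf4a* cKO mice were adults with floxed *Hnf4a* alleles and *Alb*-CreERT2, a Cre recombinase that the Albumin promoter drives and tamoxifen switches on, and their livers were taken after a week of tamoxifen. The control livers had no tamoxifen. The methods describe them as floxed mice that lack Cre, a legend of the study as mice of the same genotype, and the sample labels as WT. Loss of *Hnf4a* and exposure to tamoxifen therefore cannot be told apart in these livers. The RNA came from pulverized whole livers, although the labels name hepatocytes, so every cell type of the liver is part of each sample, and fewer cells of a type cannot be told apart from less RNA per cell. NIH 3T3 cells are a line of mouse embryonic fibroblasts. HNF4A EE cells had received a lentivirus with mouse *Hnf4a* and eGFP, control cells the empty vector, and both were collected 72 h after transduction.

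The acute phase response is the change in plasma proteins that follows infection or injury. Cytokines of the interleukin-6 and interleukin-1 families act on hepatocytes through STAT3, NF-kappaB and the C/EBP factors, and the liver then secretes more of the positive acute phase proteins and less of the negative ones, such as transthyretin and transferrin. HNF4A is a nuclear receptor on which much of the hepatocyte gene program depends. It is absent from fibroblasts, where most plasma protein genes are silent. The liver comparison asks how these genes stand when *Hnf4a* is lost from the adult organ, and the 3T3 comparison asks which of them come on when HNF4A is added to a cell without it.

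Each table gives a single FPKM per gene and group, the authors' value for the group. FPKM are the fragments of a gene scaled by transcript length and by the fragments of the library, so levels of different genes can be set side by side within a group. The difference between groups is given below as the log2 ratio of FPKM + 1. A gene is called higher or lower where it has 1 FPKM or more in either group and a log2 ratio of 0.5 or more, or of -0.5 or less. No value of single samples was analysed here, so no difference below has a replicate check, an error or a test, and "higher" and "lower" compare 1 value with 1 value. The depth of the samples is unknown. *Hnf4a* itself was at 144 FPKM in *Hnf4a* cKO livers and 275 FPKM in control livers, a value that sums all its exons, and at 1758 FPKM in HNF4A EE 3T3 cells and 0.639 FPKM in control 3T3 cells. Albumin, the most abundant transcript of normal liver, is listed at 0 in both liver groups, so a listed 0 need not mean that a gene had no RNA. Of the other 9 hepatocyte markers examined, all were above the floor of 1 FPKM in the livers. Of these, 7 were lower in *Hnf4a* cKO livers, where 19.1% of all entries above the floor were. Of 10 fibroblast and stellate cell markers, 4 were above the floor in 3T3 cells. Of these, 3 were lower and 1 higher in HNF4A EE 3T3 cells, where 22.9% and 23.1% of all entries above the floor were. The lower ones were the collagens *Col1a1*, *Col1a2* and *Col3a1*, at 3.95, 6.61 and 0.533 FPKM in HNF4A EE 3T3 cells and 123, 443 and 35.0 FPKM in control 3T3 cells. The higher one was *Thy1*, at 1.08 FPKM in HNF4A EE 3T3 cells and listed at 0 in control 3T3 cells. It passed the floor only through HNF4A EE 3T3 cells.

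In the livers the acute phase genes did not all differ in the same direction. Haptoglobin, lipocalin 2, both orosomucoids and *Saa3* were higher in *Hnf4a* cKO livers than in control livers, *Saa4* and *Apcs* were lower, and *Saa1*, *Saa2* and *Hpx* lay within the limits. All 10 were above the floor, so 5 of 10 were higher, where 15.5% of the 11275 entries above the floor were, and 2 of 10 were lower, where 19.1% were. The share of lower members is thus close to that of all entries. At the stricter limit of 1 on the log2 scale, a 2-fold difference, 4 members were higher against 5.25% of all entries and 2 were lower against 8.89%. The median log2 ratio of the 10 genes was 0.44, with a range of -2.96 to 2.34, and the median of all entries above the floor was -0.01, with quartiles of -0.36 and 0.31.

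These counts depend in part on how the 2 groups are scaled. All listed FPKM summed to 458704 in *Hnf4a* cKO livers and to 601955 in control livers. With both sums set equal (TPM scaling), the median log2 ratio of all entries moved to 0.35, 38.7% of entries were higher and 11.8% lower, and of the members 6 were higher and 2 lower. *Hpx* was the sixth, at a log2 ratio of 0.57, and *Saa1* and *Saa2*, which lay below 0 in the deposited FPKM, lay above it at 0.02 and 0.23. The other 7 members kept their call and direction under this scaling.

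**Figure D1:**
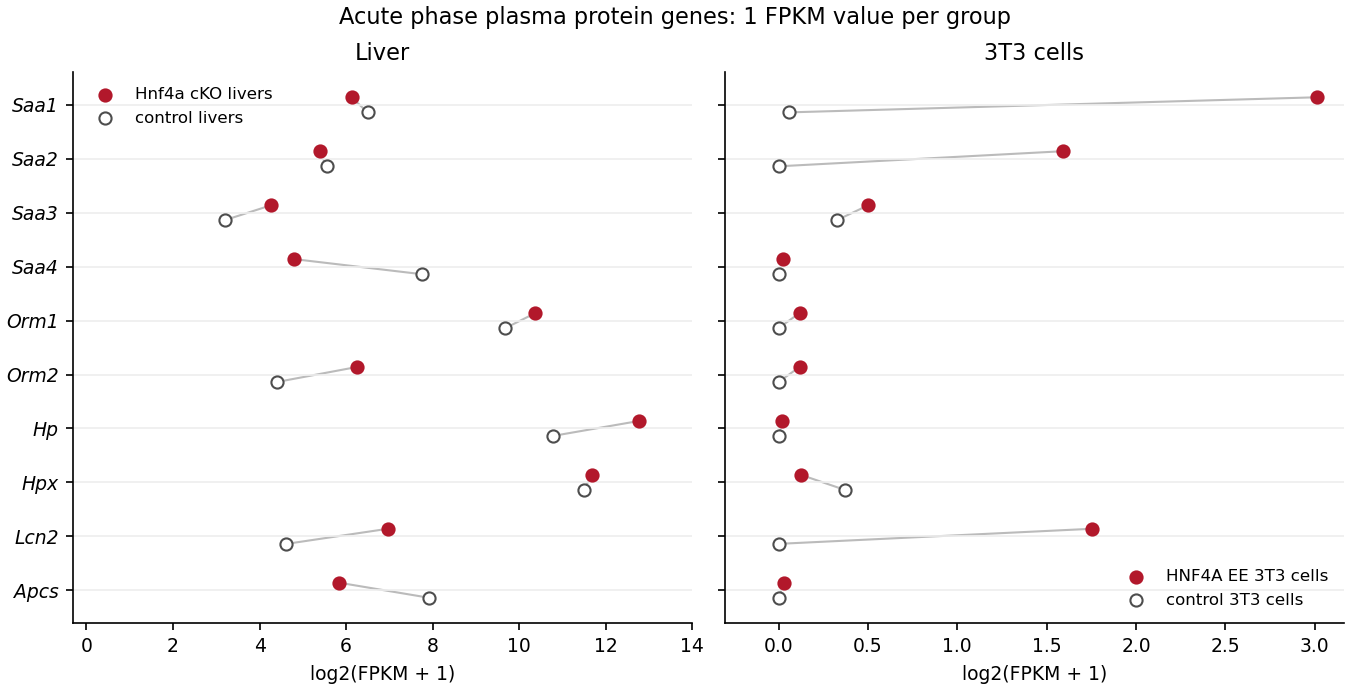
Levels of the 10 acute phase genes as log2(FPKM + 1), with 1 value per group and no error; filled points are *Hnf4a* cKO livers (left) and HNF4A EE 3T3 cells (right), open points their controls, and the axes of the 2 panels differ in range. *Hp* in *Hnf4a* cKO livers lies farthest right, *Saa4* and *Apcs* lie left of their controls, and in 3T3 cells only *Saa1*, *Saa2* and *Lcn2* reach 1 FPKM.

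*Hp* encodes haptoglobin, which binds the haemoglobin that red cells release so that macrophages can clear it. It was at 7016 FPKM in *Hnf4a* cKO livers and 1747 FPKM in control livers, a 4.02-fold difference. By level it was the third of all entries in *Hnf4a* cKO livers and the 37th in control livers, and it held 1.53% against 0.290% of all listed FPKM. *Hpx* encodes hemopexin, the plasma protein that binds free haem. It was at 3266 FPKM in *Hnf4a* cKO livers and 2886 FPKM in control livers, with a log2 ratio of 0.18. The ratio of *Hp* to *Hpx* was accordingly 2.15 in *Hnf4a* cKO livers and 0.605 in control livers, a value that no scaling between the groups alters. Chiefly through *Hp*, the 10 genes together came to 12021 FPKM in *Hnf4a* cKO livers and 6095 FPKM in control livers, which was 2.62% against 1.01% of all listed FPKM. The *Hp* gene spans chr8:109575128-109579172 and *Hpx* chr7:105591611-105600116, both on the minus strand of mm10.

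*Lcn2* encodes lipocalin 2, which starves bacteria of iron by binding their siderophores and is also stored in the granules of neutrophils. It was at 124 FPKM in *Hnf4a* cKO livers and 23.6 FPKM in control livers, 5.25-fold apart. Its log2 ratio of 2.34 was the highest among the members and the 99th highest of all 11275 entries above the floor. The gene lies at chr2:32384637-32387739 on the minus strand. Some neutrophil markers were also higher in *Hnf4a* cKO livers. Of 10 listed, 9 are in the table and 3 were above the floor, all of them higher, where 15.5% of all entries were. The 3 were *S100a8*, at 17.5 FPKM in *Hnf4a* cKO livers and 1.45 FPKM in control livers, *S100a9*, at 17.3 FPKM and 1.81 FPKM in the same order, and *Retnlg*, at 3.40 FPKM and listed at 0. *Retnlg* passed the floor only through *Hnf4a* cKO livers, and the other markers were under it in both groups. The 9 markers summed to 39.8 FPKM in *Hnf4a* cKO livers and 4.07 FPKM in control livers. Under the floor, *Csf3r*, *Ngp*, *Camp* and *Elane* were at 0.680, 0.405, 0.240 and 0.138 FPKM in *Hnf4a* cKO livers. In control livers these 4 were at 0.366, 0.204, 0.108 and 0.0632 FPKM. *Ltf* was at 0.0957 FPKM in *Hnf4a* cKO livers and 0.0506 FPKM in control livers, and *Mpo* at 0.0153 FPKM and 0.0183 FPKM in the same order. The 10 macrophage markers summed to 310 FPKM in *Hnf4a* cKO livers and 301 FPKM in control livers, and 1 of them was higher, where 15.5% of all entries were. This was *Marco*, at 43.4 FPKM in *Hnf4a* cKO livers and 3.91 FPKM in control livers. The part of these cells in the level of *Lcn2* was not tested.

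The orosomucoids, or alpha-1-acid glycoproteins, are lipocalins of plasma that carry basic and neutral small molecules. In the mouse they are encoded by *Orm1*, *Orm3* and *Orm2*, which follow each other within 21.3 kb of chromosome 4, all on the plus strand, with *Orm1* at chr4:63344566-63348162 and *Orm2* at chr4:63362449-63365877. *Orm1* was at 1328 FPKM in *Hnf4a* cKO livers and 819 FPKM in control livers, with a log2 ratio of 0.70, so it did not reach a 2-fold difference. *Orm2*, far less abundant, was at 75.3 FPKM in *Hnf4a* cKO livers and 20.0 FPKM in control livers, a 3.76-fold difference. *Orm3*, which is not among the 10, was at 62.6 FPKM in *Hnf4a* cKO livers and 13.4 FPKM in control livers. All 3 genes of the cluster were therefore higher in *Hnf4a* cKO livers, and the minor genes by more than *Orm1*. *Orm1* made up 90.6% of the orosomucoid FPKM in *Hnf4a* cKO livers and 96.1% in control livers. The transcripts of *Orm1* and *Orm2* in GENCODE share 91.0% of their bases, and 20.4% of the 50-base windows of *Orm1* occur unchanged in *Orm2*. How reads that fit more than 1 of these genes were assigned is not given in the sources used here, so the split between the 3 genes is uncertain and their sum, 1466 FPKM in *Hnf4a* cKO livers and 852 FPKM in control livers, is the firmer value.

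The entries flanking the Orm cluster were low in the livers. *Col27a1*, upstream, was at 0.755 FPKM in *Hnf4a* cKO livers and 2.09 FPKM in control livers, *Mir455*, at the same locus, is listed at 0 in both, and *Akna* and *Whrn*, downstream, were under 1 FPKM in both groups. The 80 bases shown here for *Orm2* (chr4:63362293-63362372) and *Orm3* (chr4:63356001-63356080), plus strand, lie upstream of the start site in RefSeq on GRCm38.p6. They are set one above the other because these 2 genes had the larger ratios of the cluster, and the capitals mark a match to TTGCNNAA, the motif of C/EBP factors.
Orm2: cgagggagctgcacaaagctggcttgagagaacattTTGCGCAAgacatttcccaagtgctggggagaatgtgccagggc
Orm3: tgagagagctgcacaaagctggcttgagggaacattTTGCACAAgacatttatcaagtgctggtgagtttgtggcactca
The match lies at bases -120 to -113 of *Orm2* and -121 to -114 of *Orm3*, counted from the start site, and over the 250 bases before it the 2 windows are the same at 89.0% of 245 aligned bases.

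Serum amyloid A proteins are small apolipoproteins of high density lipoprotein. *Saa1* and *Saa2* are the acute forms made by the liver, *Saa3* is a mouse form that macrophages and fat cells also make, and *Saa4* is the constitutive form. The 4 genes lie within 42.3 kb of chromosome 7 in the order *Saa3*, *Saa4*, *Saa1*, *Saa2*. *Saa3* (chr7:46711998-46715676), *Saa4* (chr7:46727999-46732543) and *Saa1* (chr7:46740499-46742980) are on the minus strand and *Saa2* (chr7:46751833-46754314) is on the plus strand, so that *Saa1* and *Saa2* point away from each other.

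*Saa4* was at 26.7 FPKM in *Hnf4a* cKO livers and 214 FPKM in control livers, 8.02-fold lower. Its log2 ratio of -2.96 was the lowest among the members and the 196th lowest of all entries above the floor. *Saa3*, the neighbour of *Saa4*, went the other way, at 18.3 FPKM in *Hnf4a* cKO livers and 8.13 FPKM in control livers, with a log2 ratio of 1.08. The acute forms, which follow *Saa4* in the cluster, were within the limits. *Saa1* was at 68.9 FPKM in *Hnf4a* cKO livers and 89.3 FPKM in control livers, with a log2 ratio of -0.37. *Saa2* was at 40.9 FPKM in *Hnf4a* cKO livers and 45.8 FPKM in control livers, with a log2 ratio of -0.16. The family as a whole came to 155 FPKM in *Hnf4a* cKO livers and 357 FPKM in control livers, which was 0.0338% against 0.0594% of all listed FPKM. Its makeup differed accordingly, with *Saa4* giving 17.3% of the family's FPKM in *Hnf4a* cKO livers and 59.9% in control livers, and *Saa1* giving 44.5% and 25.0% in the same order. The acute forms were modest in level next to *Hp*, *Hpx* and *Orm1* in either group, with *Saa1* the 996th entry by level in *Hnf4a* cKO livers and the 963rd in control livers. Outside the cluster, *Saal1*, *Hps5* and *Gtf2h1* were within the limits in the livers, at log2 ratios of 0.25, -0.15 and -0.28, and *Tph1* was under the floor.

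**Figure D2:**
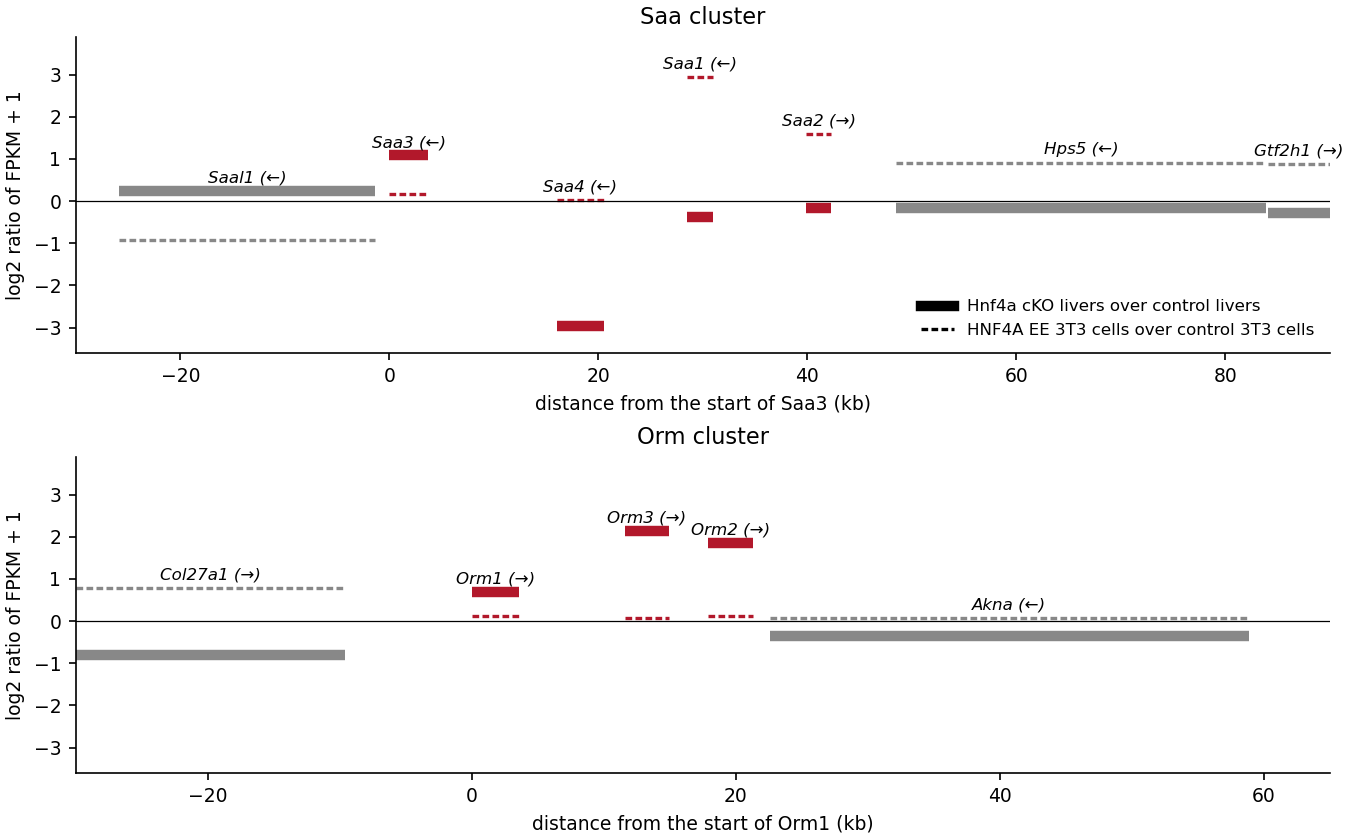
Log2 ratio of FPKM + 1 of each gene of the Saa cluster (top) and the Orm cluster (bottom) against its place, in kb from the start of *Saa3* or *Orm1*; thick bars are *Hnf4a* cKO livers over control livers, dashed bars HNF4A EE 3T3 cells over control 3T3 cells, red marks the Saa and Orm genes, grey their neighbours (cropped at the edges, under the floor for some), and arrows give the strand. In the livers *Saa4* is at -2.96 beside *Saa3* at 1.08, while in 3T3 cells *Saa1* and *Saa2* stand at 2.95 and 1.59 and every other Saa and Orm gene is near 0.

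*Saa1* and *Saa2* are close in sequence. Their coding sequences in GENCODE have 369 bases each and differ at 18 of them, so 95.1% are the same. The stretch from base 91 to base 150 is shown because it holds 7 of those differences, in capitals.
Saa1: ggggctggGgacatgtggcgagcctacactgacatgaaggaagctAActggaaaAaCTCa
Saa2: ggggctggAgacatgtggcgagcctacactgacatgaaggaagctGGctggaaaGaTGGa
Over whole transcripts, 13.2% of the 50-base windows of *Saa1* are also in *Saa2*. A part of the reads of each may therefore have been counted for the other, and the values of these 2 genes are uncertain to that extent. *Saa3* shares 1.78% of its windows with *Saa1*, and *Saa4* shares none with any of the other 3, so their values are little exposed to this.

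The upstream bases of the Saa genes are shown because *Saa1* and *Saa2* were the pair that reached 1 FPKM in HNF4A EE 3T3 cells and *Saa4* and *Saa3* the pair that differed in opposite directions in the livers. They are from RefSeq on GRCm38.p6, each 80 bases long and read along the gene, and the capitals again mark TTGCNNAA on either strand.
Saa1: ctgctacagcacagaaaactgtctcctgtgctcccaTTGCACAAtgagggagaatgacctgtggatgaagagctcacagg
Saa2: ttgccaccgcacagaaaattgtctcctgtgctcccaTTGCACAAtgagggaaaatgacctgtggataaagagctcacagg
Saa3: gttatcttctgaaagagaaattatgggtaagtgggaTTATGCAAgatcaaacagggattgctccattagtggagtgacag
Saa4: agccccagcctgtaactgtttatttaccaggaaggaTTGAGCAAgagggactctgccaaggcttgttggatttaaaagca
They lie at chr7:46743119-46743198 for *Saa1* (minus strand), chr7:46751614-46751693 for *Saa2* (plus strand), chr7:46715732-46715811 for *Saa3* (minus strand) and chr7:46732612-46732691 for *Saa4* (minus strand). The matches lie at bases -182 to -175 of *Saa1*, -183 to -176 of *Saa2*, -99 to -92 of *Saa3* and -52 to -45 of *Saa4*, which has a further match at -245 to -238. The *Saa1* and *Saa2* windows are the same at 95.6% of 249 aligned bases and so do not count as separate instances. Against *Saa1*, the window of *Saa3* is the same at 59.4% of the aligned bases and that of *Saa4* at 61.4%.

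Of the 8 members with a promoter window in the RefSeq table used here, 7 had TTGCNNAA on either strand of the 250 bases before the start site, and 9.56% of all 32851 windows had it. *Apcs* was the exception. The 7 count both *Saa1* and *Saa2*, whose windows are not separate instances. The match was shared by genes that were higher in *Hnf4a* cKO livers (*Lcn2*, *Orm2*, *Saa3*), lower (*Saa4*) and within the limits (*Hpx*, *Saa1*, *Saa2*). The HNF4 motif CAAAGTCCA was in none of the 8 windows, and in 0.384% of all windows. Its looser form CAAAGNNCA, which includes the strict one, was in *Saa3* alone, at bases -22 to -14, and in 5.49% of all windows. The STAT motif TTCNNNGAA was in *Apcs* alone, at -244 to -236, and in 7.02% of all windows. The kappaB motif was in none of the 8 and in 7.25% of all. A match of letters is not a bound site, and these windows leave out more distant elements. *Hp* and *Orm1* had no window. *Lcn2*, on the minus strand at chr2:32387910-32387989, and *Hpx*, on the minus strand at chr7:105600273-105600352, are shown as the members outside the 2 clusters that hold the C/EBP motif, the first with the highest liver ratio and the second within the limits, with matches at -216 to -209 and -200 to -193.
Lcn2: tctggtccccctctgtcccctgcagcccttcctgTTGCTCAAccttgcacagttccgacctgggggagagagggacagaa
Hpx: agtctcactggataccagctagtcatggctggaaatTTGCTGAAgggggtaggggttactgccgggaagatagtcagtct

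*Apcs* encodes serum amyloid P, a pentraxin that binds amyloid fibrils and in the mouse is a main acute phase protein. It was at 56.3 FPKM in *Hnf4a* cKO livers and 242 FPKM in control livers, 4.29-fold lower, and its log2 ratio of -2.08 was the 358th lowest of all entries above the floor. The gene lies at chr1:172893961-172895054 on the minus strand. *Crp*, the other short pentraxin, is on the same chromosome and had a ratio of like size, at 105 FPKM in *Hnf4a* cKO livers and 420 FPKM in control livers, with a log2 ratio of -1.98.

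**Figure D3:**
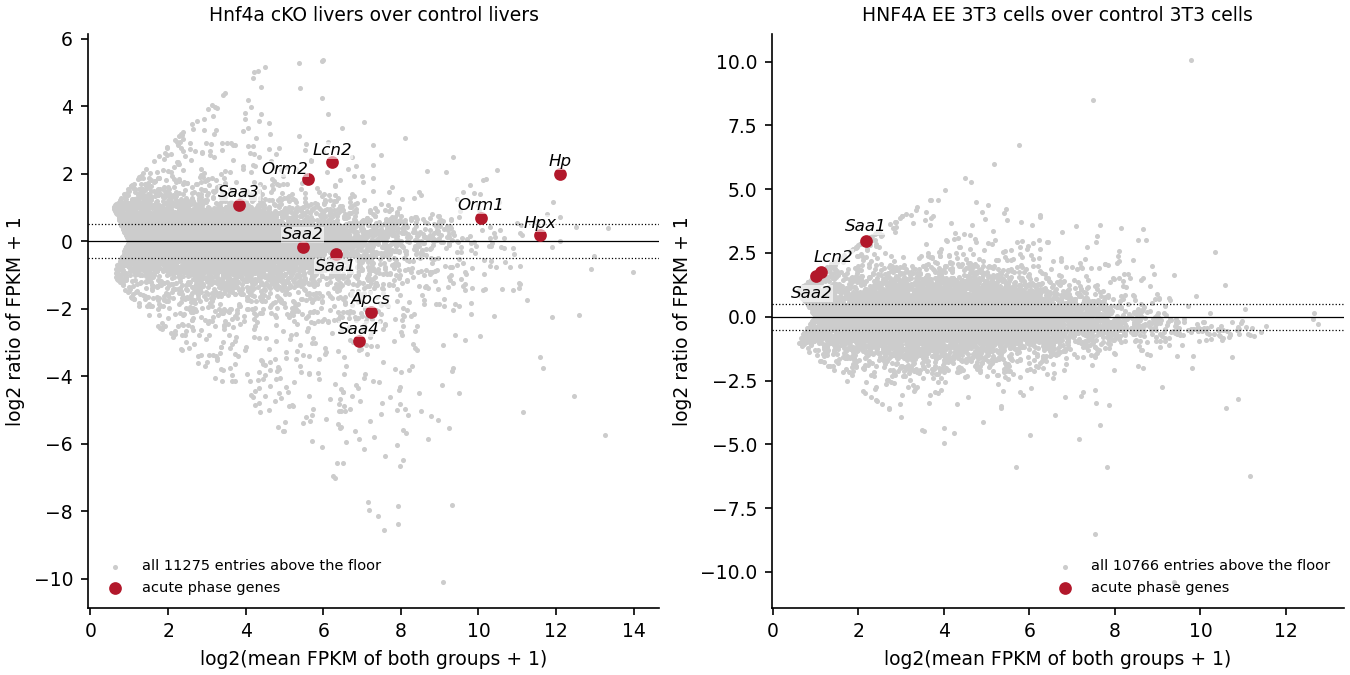
Log2 ratio of FPKM + 1 against log2 of the mean FPKM of both groups + 1, for *Hnf4a* cKO livers over control livers (left) and HNF4A EE 3T3 cells over control 3T3 cells (right); grey points are the 11275 and 10766 entries with 1 FPKM or more in either group, red points the acute phase genes among them, and dotted lines mark 0.5 and -0.5. In the livers the 10 genes spread from -2.96 to 2.34, and in 3T3 cells the 3 that reach the floor lie along the upper edge, where genes near 0 in control cells must lie.

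Other acute phase proteins of the liver were as divided as these 10. Of 25 further positive acute phase proteins, 23 were above the floor, with 12 higher, 6 lower and 5 within the limits in *Hnf4a* cKO livers and a median log2 ratio of 0.56, where 15.5% of all entries were higher and 19.1% lower. Under TPM scaling 14 were higher and 5 lower, where 38.7% of all entries were higher and 11.8% lower. The highest were *Il1rn*, the antagonist of the interleukin-1 receptor, at 13.7 FPKM in *Hnf4a* cKO livers and 1.28 FPKM in control livers, and *Lrg1*, a leucine-rich glycoprotein of plasma, at 1107 FPKM and 194 FPKM in the same order. *Itih3*, a heavy chain that is bound to hyaluronan, *Lbp*, which binds bacterial lipopolysaccharide, *Cp*, the copper-carrying ferroxidase ceruloplasmin, and *Fgl1* were also over 2-fold higher, at log2 ratios of 1.85, 1.75, 1.46 and 1.41. The lowest were the protease inhibitors *Serpina3m*, at 22.9 FPKM in *Hnf4a* cKO livers and 478 FPKM in control livers, and *Serpina1b*, at 261 FPKM and 1850 FPKM in the same order. *Crp* and the complement component *C4b* were also over 2-fold lower, at log2 ratios of -1.98 and -1.27. The 3 fibrinogen chains *Fga*, *Fgb* and *Fgg*, named after their values were seen, had log2 ratios of 0.49, 0.73 and 0.56.

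The negative acute phase proteins were lower or within the limits. Of 10 listed, 9 were above the floor, with 0 higher, 6 lower and 3 within, and a median log2 ratio of -2.17. *Apoa2*, an apolipoprotein of high density lipoprotein, was at 358 FPKM in *Hnf4a* cKO livers and 19440 FPKM in control livers. *F12*, coagulation factor XII, was at 11.7 FPKM in *Hnf4a* cKO livers and 351 FPKM in control livers. The carriers of thyroid hormone and iron, *Ttr* and *Trf*, had log2 ratios of -2.24 and -2.17. The share of lower genes in this list was 6 of 9, against 19.1% of all entries. Under TPM scaling it was again 6 of 9, against 11.8% of all entries. *Apoa1* was then higher, where 38.7% of all entries were. Among the hepatocyte markers, which include *Ttr* and *Apoa1* of this list, 7 of 9 were lower in the deposited FPKM.

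The genes that carry the acute phase signal were also measured. Of the 10 inducing cytokines, 4 were above the floor in the livers, and *Il6*, the main inducer, was at 0.0236 FPKM in *Hnf4a* cKO livers and 0.0493 FPKM in control livers. *Clcf1*, another cytokine of that family, was the 1 called higher, where 15.5% of all entries were. It was at 2.76 FPKM in *Hnf4a* cKO livers and 0.279 FPKM in control livers, so it passed the floor only through *Hnf4a* cKO livers. The 10 receptors were all above the floor, with 2 higher, 4 lower and 4 within, where 15.5% of all entries were higher and 19.1% lower. The 2 higher ones, *Osmr* and *Il22ra1*, passed the floor only through *Hnf4a* cKO livers. Under TPM scaling 4 of the 10 receptors were higher and 3 lower, where 38.7% and 11.8% of all entries were. The lowest were *Il1rap*, the accessory chain of the interleukin-1 receptor, at 6.87 FPKM in *Hnf4a* cKO livers and 79.7 FPKM in control livers, and *Lifr*, the receptor chain for leukaemia inhibitory factor, at 34.4 FPKM and 108 FPKM in the same order. The median of this list was -0.23, and it turned to 0.15 under TPM scaling.

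Of 14 signal carriers and transcription factors, 3 were higher, 4 lower and 7 within the limits, where 15.5% of all entries were higher and 19.1% lower. Under TPM scaling 6 were higher and 2 lower, where 38.7% and 11.8% of all entries were. The list as a whole is thus near the shares of all entries. *Stat3*, the factor that interleukin-6 activates, was at 63.0 FPKM in *Hnf4a* cKO livers and 28.8 FPKM in control livers. *Cebpa*, the C/EBP factor of the resting hepatocyte, was at 38.2 FPKM in *Hnf4a* cKO livers and 227 FPKM in control livers, a log2 ratio of -2.54. *Cebpb*, the C/EBP factor of the acute phase, was at 99.0 FPKM in *Hnf4a* cKO livers and 63.7 FPKM in control livers, and *Socs3*, a target and inhibitor of STAT3 signals, was at 8.65 FPKM and 4.14 FPKM in the same order. These last 2 were named after their values were seen. The activity of the proteins was not measured.

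**Figure D4:**
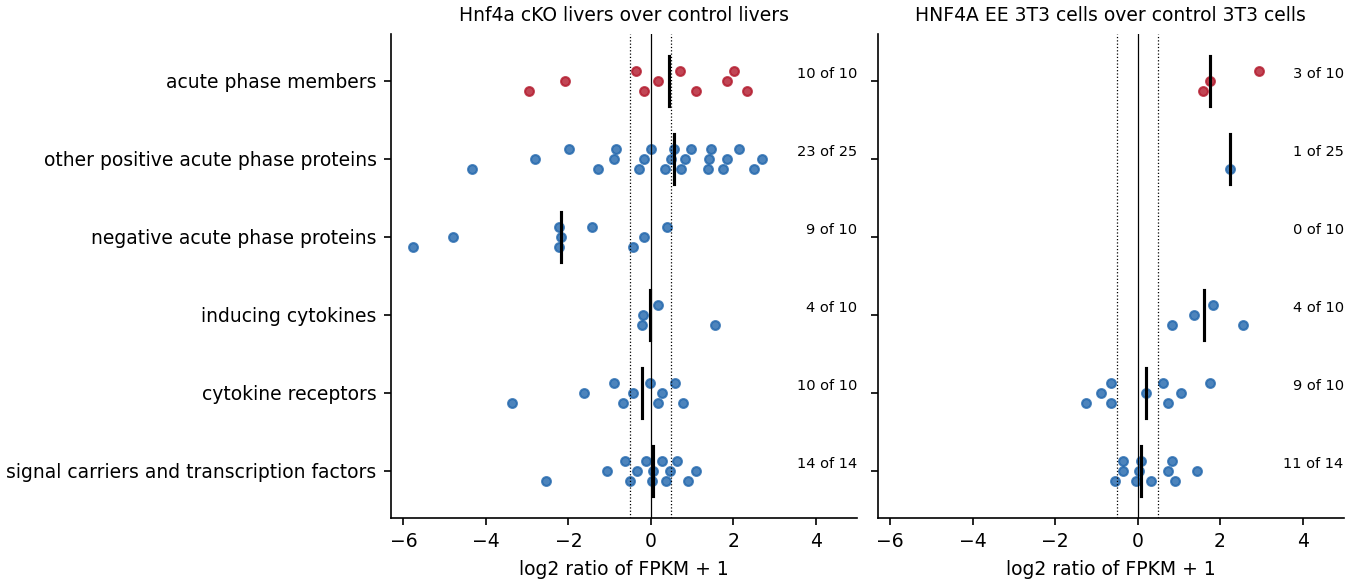
Log2 ratio of FPKM + 1 of each gene with 1 FPKM or more in either group, by list, in *Hnf4a* cKO livers over control livers (left) and HNF4A EE 3T3 cells over control 3T3 cells (right); each point is a gene, black bars are list medians, dotted lines mark 0.5 and -0.5, and the numbers give how many genes of each list are plotted. In the livers the 10 members (median 0.44) and the other positive proteins (median 0.56) spread to both sides of 0, and 6 of 9 negative proteins lie below -1.

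In 3T3 cells most of the acute phase genes were under 1 FPKM, with HNF4A or without it. Only *Saa1*, *Saa2* and *Lcn2* reached 1 FPKM, all 3 in HNF4A EE cells, and each was at or near 0 in control cells. *Saa1* was at 7.06 FPKM in HNF4A EE 3T3 cells and 0.0417 FPKM in control 3T3 cells. *Lcn2* was at 2.37 FPKM in HNF4A EE 3T3 cells and *Saa2* at 2.01 FPKM, and both are listed at 0 in control 3T3 cells. The log2 ratios of FPKM + 1 were 2.95 for *Saa1*, 1.75 for *Lcn2* and 1.59 for *Saa2*, the 75th, 306th and 381st highest of the 10766 entries above the floor. The sizes of these ratios rest on the added 1 FPKM, and so do the ranks. For *Saa1*, *Lcn2* and *Saa2* in turn they were 5.66, 4.63 and 4.40 with 0.1 FPKM in its place, and 7.09, 7.90 and 7.66 with 0.01 FPKM, where *Saa1* is the lowest of the 3.

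These 3 passed the floor only through the group in which they are high, so their count is a description. In all, 23.1% of the entries above the floor were higher in HNF4A EE 3T3 cells and 22.9% lower, and at the 2-fold limit 9.36% and 8.08% were. Under TPM scaling the median of all entries above the floor was 0.13 in place of -0.01, and the 3 genes stayed higher.

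The other 7 members were under the floor in both groups of 3T3 cells. *Saa3* was the most abundant of them, at 0.417 FPKM in HNF4A EE 3T3 cells and 0.253 FPKM in control 3T3 cells. *Hpx* was at 0.0903 FPKM in HNF4A EE 3T3 cells and 0.294 FPKM in control 3T3 cells. *Orm1* and *Orm2* were at 0.0850 FPKM and 0.0846 FPKM in HNF4A EE 3T3 cells, and *Apcs*, *Saa4* and *Hp* at 0.0216, 0.0176 and 0.0149 FPKM, and all 5 are listed at 0 in control 3T3 cells. *Hp*, among the most abundant transcripts of the liver, was thus far under the floor in HNF4A EE 3T3 cells. At values this low, and with no depth known, neither a difference between the groups nor the order of the lowest genes could be read.

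*Hps5*, *Gtf2h1* and *Saal1*, which flank the Saa cluster, were expressed in 3T3 cells in both groups. *Hps5* was at 14.7 FPKM in HNF4A EE 3T3 cells and 7.34 FPKM in control 3T3 cells, *Gtf2h1* was at 64.9 FPKM and 35.0 FPKM in the same order, and *Saal1*, at the other end, was at 5.49 FPKM and 11.4 FPKM. *Saa2* lies next to *Hps5*, with *Gtf2h1* beyond it. Both of these neighbours were higher in HNF4A EE 3T3 cells, at log2 ratios of 0.91 and 0.87, where 23.1% of all entries were. *Saal1* was lower, at -0.93, where 22.9% of all entries were. *Saa3* and *Saa4*, which lie between *Saal1* and *Saa1*, were under the floor.

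Few other acute phase genes were above the floor in 3T3 cells. Of the 25 other positive acute phase proteins 1 was above the floor, *Cd14*, a receptor for lipopolysaccharide, at 60.9 FPKM in HNF4A EE 3T3 cells and 12.1 FPKM in control 3T3 cells. Of the 10 negative proteins 0 were. The hepatocyte markers were all under the floor in both groups, the highest being *Apob* at 0.935 FPKM in HNF4A EE 3T3 cells and 0.0126 FPKM in control 3T3 cells. Of the cytokines that induce the response, 4 were above the floor and all 4 were higher, where 23.1% of all entries were. These were *Clcf1*, *Ctf1*, *Lif* and *Il11*, the last of which passed the floor only through HNF4A EE 3T3 cells, and *Clcf1* was at 467 FPKM in HNF4A EE 3T3 cells and 78.3 FPKM in control 3T3 cells. Among 9 receptors above the floor, 4 were higher and 4 lower, and among 11 signal carriers and transcription factors 4 were higher and 1 lower, where 23.1% of all entries were higher and 22.9% lower. *Nfkbia*, the inhibitor of NF-kappaB that NF-kappaB itself induces, was at 50.5 FPKM in HNF4A EE 3T3 cells and 17.9 FPKM in control 3T3 cells. *Cebpa* is listed at 0 in both groups, while *Cebpb* was at 188 FPKM in HNF4A EE 3T3 cells and 105 FPKM in control 3T3 cells. Of the neutrophil markers, *S100a8* was above the floor, at 8.24 FPKM in HNF4A EE 3T3 cells and 0.337 FPKM in control 3T3 cells, while *S100a9* was at 0.0977 FPKM and listed at 0. The part of the lentivirus or of these cytokines in *Saa1*, *Saa2* and *Lcn2* was not tested.

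For the 3 genes above the floor in both tables, the calls are set side by side. *Saa1* and *Saa2* were within the limits in *Hnf4a* cKO livers and higher in HNF4A EE 3T3 cells. *Lcn2* was higher in *Hnf4a* cKO livers, where *Hnf4a* was lower, and higher in HNF4A EE 3T3 cells, where *Hnf4a* was higher. *Saa4* and *Apcs*, the 2 members that were lower in *Hnf4a* cKO livers, were at 0.0176 and 0.0216 FPKM in HNF4A EE 3T3 cells. The difference between the 2 comparisons was not tested. *Saa1* was 1.68 times *Saa2* in *Hnf4a* cKO livers, 1.95 times in control livers and 3.51 times in HNF4A EE 3T3 cells.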

How the data were processed

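RNA was sequenced from 4 groups of 3 samples. Reads were aligned to mm10 with STAR 2.5.0b, and the authors calculated FPKM with Cufflinks 2.2.1, as named in the submitters' processing notes. The 2 deposited tables hold 1 FPKM per gene and group. They also hold the authors' log2 fold changes, test statistics, p-values and q-values, which were not used. The sources used here do not give the annotation, strand setting, read length or library scaling. Where FPKM divide by all reads of a library, a few abundant genes that differ can shift all others. Whether the deposited FPKM were scaled in this way is unknown. The tables were normalized separately, and ratios were taken within a table. The 101 entries that name several genes were kept.

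Log2 ratios of FPKM + 1 were computed with a floor of 1 FPKM in either group and limits of 0.5 and 1, in Python 3.11.15 with pandas 2.3.3 and numpy 2.4.6. The steps were tested on simulated data. Coordinates are those of the files, counted from 1, and strands were read from the GENCODE vM21 annotation of GRCm38 (mm10). Motifs were searched in 250 bases upstream of RefSeq start sites. The alternatives were other pseudocounts, floors, limits and scalings. The members and lists were chosen with earlier results of these data known. The text names all members, listed genes with a 2-fold ratio and 10 FPKM in either group, the neighbours of the clusters and, for members above the floor in both tables, the 3 genes nearest in level. Other listed genes were named after their values were seen where a short count or a marker called for them.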

Additional observations from a re-analysis of the deposited data

How the results depend on the processing

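Each alternative was applied to both comparisons. In the livers the number of lower members stayed at 2 in all 9 alternatives, and the number of higher members, 5, became 4 with a limit of 1 on the log2 scale, where *Orm1* at 0.70 is lost, and 6 with TPM scaling, where *Hpx* at 0.57 is gained. With the 10 most abundant entries of either group left out of that scaling, 5 were higher, *Hpx* was at 0.48, *Saa1* at -0.07 and *Saa2* at 0.14, and the median of all entries was 0.28. In 3T3 cells 3 members were higher under every alternative except a floor of 5 FPKM, under which 1 was, *Saa1*. With no floor, the median log2 ratio of the 10 members in 3T3 cells was 0.12. No paired analysis was possible because each table gives a single value per group, although the labels number the samples, and for the same reason no sample could be left out. The depth is unknown and limits mainly the 7 members under the floor in 3T3 cells.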

Other observations

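The receptors and partners of these proteins were set apart from the members' own counts. In the livers 7 of 10 were above the floor, with 1 higher, *Scarb1*, a receptor for high density lipoprotein, at 147 FPKM in *Hnf4a* cKO livers and 79.6 FPKM in control livers, 0 lower and 6 within the limits, where 15.5% of all entries were higher and 19.1% lower. *Cd163*, the macrophage receptor for haptoglobin bound to haemoglobin, was at 6.10 FPKM in *Hnf4a* cKO livers and 5.58 FPKM in control livers, beside the 4.02-fold difference of *Hp*. In 3T3 cells 5 of the 10 were above the floor and 4 were higher, where 23.1% of all entries were. *Hmox1*, which breaks haem down, was at 759 FPKM in HNF4A EE 3T3 cells and 93.5 FPKM in control 3T3 cells, and *Lrp1*, the receptor for hemopexin, was at 119 FPKM and 15.3 FPKM in the same order. *Scarb1* was at 68.5 FPKM in HNF4A EE 3T3 cells and 32.6 FPKM in control 3T3 cells, and *Tlr2*, a receptor through which serum amyloid A can signal, at 14.9 FPKM and 6.61 FPKM.

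For the 3 members above the floor in both tables, the genes nearest in level were found by the Euclidean distance over the 4 group values of log2(FPKM + 1). *Saa1* was nearest to *Cyp3a13* at a distance of 0.887, followed by *Acox2* and *Mst1*. *Cyp3a13*, a cytochrome P450, was at 71.9 FPKM in *Hnf4a* cKO livers and 93.8 FPKM in control livers, and at 4.09 FPKM in HNF4A EE 3T3 cells and 0.560 FPKM in control 3T3 cells. *Saa2* was nearest to *Tmem53* at 0.554, followed by *Pik3ap1* and *BC021614*. *Lcn2* was nearest to *Htatip2* at 1.09, followed by *Anpep* and *Nr0b2*. With 4 values a gene, likeness of this kind is a description.

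Cholangiocyte markers were higher in *Hnf4a* cKO livers for 4 of the 6 above the floor, where 15.5% of all entries were higher, among them *Sox9*, at 6.77 FPKM in *Hnf4a* cKO livers and 0.536 FPKM in control livers. Endothelial markers had 1 higher and 4 lower of 8, where 19.1% of all entries were lower, but 1 higher and 0 lower under TPM scaling and 1 and 1 when the 10 most abundant entries were left out of it. Stellate cell and fibroblast markers had 0 higher and 3 lower of 9, where 19.1% of all entries were lower, and 0 and 2 under either scaling.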
